A study of Mus musculus with 9 samples.

Results

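The genes of 9 integrin subunits, Itga2, Itga3, Itga5, Itga6, Itgav, Itgb1, Itgb4, Itgb5 and Itgb6, were examined in Reissner's membrane of adult mice, the thin sheet between the scala media and the scala vestibuli of the cochlea. They were chosen by name from among 18193 genes on the array, and every probe set annotated to them was taken, 28 of 45101. Membranes were cut out by hand and pooled, and RNA was measured on 9 Affymetrix arrays in 3 groups of 3, lettered A to C. The dexamethasone group was kept as explants for 24 h with the synthetic glucocorticoid dexamethasone at 100 nM, the incubated group was kept for 24 h without it, and the fresh group was extracted at once. The labels give no strain or genotype. The labels of 2 dexamethasone arrays type the dose in mM, while the third label and the design text give nM. The design text has 3 chips hybridized per pooled sample, so the p-values rest on array-to-array spread alone and that spread may be technical.

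Integrins are transmembrane receptors built of 1 alpha and 1 beta subunit, which join the extracellular matrix outside the cell to the cytoskeleton inside it. The alpha-3, alpha-6 and beta-4 subunits form laminin receptors of epithelial cells, and the pair of alpha-6 and beta-4 anchors keratin filaments at hemidesmosomes. The beta-1 subunit pairs with many alpha subunits, among them the collagen-binding alpha-2 and the fibronectin-binding alpha-5. The alpha-v subunit pairs with beta-5, a vitronectin receptor, and with beta-6, which is found in epithelia and releases active transforming growth factor beta from its latent complex. Reissner's membrane has an epithelial layer facing the endolymph and a mesothelial layer facing the perilymph, with a basement membrane between them.

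RefSeq promoter windows (GRCm38.p6, 250 bases before to 50 after a start of transcription) were at hand for 7 of the 9 genes, as 9 windows, since Itga3 and Itgb6 have 2 each. Itga6 and Itgb4 had none. The windows of Itgb6 (chr2:60722554-60722853, minus strand) and Itgb1 (chr8:128685404-128685703, plus strand) are shown because these genes differed in opposite directions between dexamethasone and incubated arrays, as given below. Capitals mark the letters AGAACA, a half-site of the glucocorticoid receptor, GGAATG, a motif of TEAD factors, and TGANTCA, the AP-1 motif, each searched on both strands.
Itgb6: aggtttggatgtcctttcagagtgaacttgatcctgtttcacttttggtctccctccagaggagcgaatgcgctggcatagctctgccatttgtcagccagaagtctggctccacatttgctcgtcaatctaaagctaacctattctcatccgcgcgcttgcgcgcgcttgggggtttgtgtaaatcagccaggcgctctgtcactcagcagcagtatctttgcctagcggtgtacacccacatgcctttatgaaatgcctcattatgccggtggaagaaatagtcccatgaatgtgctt
Itgb1: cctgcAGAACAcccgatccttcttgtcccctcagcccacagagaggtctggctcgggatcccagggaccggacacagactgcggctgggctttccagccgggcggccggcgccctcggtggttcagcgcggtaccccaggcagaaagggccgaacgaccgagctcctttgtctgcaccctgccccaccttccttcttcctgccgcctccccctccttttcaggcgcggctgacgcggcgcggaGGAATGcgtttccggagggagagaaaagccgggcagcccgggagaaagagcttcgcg
The Itgb1 window held 1 AGAACA from base 6 and 1 GGAATG from base 244, counted from its 5' end, and no 2 motifs overlapped. The Itgb6 window held none of the 3 motifs. AGAACA was present in 2 of the 9 windows and in 19.0% of all 32851 windows of 300 bases. GGAATG was present in 1 of the 9 and in 14.7% of all windows, and TGANTCA in 1 of the 9, the second window of Itga3, and in 7.81% of all windows. The motifs were picked with the sequences and the array results in view, and a match is a description of letters.

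Signals were linear array intensities, scaled by the authors so that the trimmed mean of each array was 500. A signal of 200 served as a working floor, and the 27 probe sets for bacterial transcripts that read as not spiked in stayed at or under 74.0 on every array. The ratio of the 3' to the 5' probe set of Gapdh, a sign of RNA quality and amplification, was 5.02 to 5.47 in dexamethasone, 3.46 to 3.88 in incubated and 6.91 to 7.53 in fresh arrays. The same ratio for beta-actin was 1.79 to 1.96, 1.86 to 1.96 and 3.97 to 4.26 in these groups. The summed signal of 10 epithelial markers was 87254.6 to 91367.1 in dexamethasone, 75598.1 to 77931.1 in incubated and 33767.8 to 34810.3 in fresh arrays. That of 7 fibrocyte markers was 13032.3 to 13413.1, 10862.5 to 11859.9 and 79861.6 to 81629.9, that of 2 endothelial markers of 6 was 1360.8 to 1588.4, 1210.3 to 1258.1 and 2812.7 to 3043.1, and that of 6 neuron and glia markers was 7612.5 to 8164.3, 5736.8 to 6023.9 and 21856.6 to 22818. Of 5 mesothelial markers only Msln was tested, at 915.2 to 963.5, 1167.3 to 1241.4 and 36.2 to 57.0, and Upk3b, Wt1 and Lrrn4 stayed under 200 on all arrays. The fresh membrane thus carried RNA of epithelial, fibrocyte and nerve markers together, and the arrays cannot place an integrin signal in the epithelium alone. Fewer cells of a type and less RNA per cell cannot be told apart in such tissue.

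A probe set was tested if it reached 200 on at least 3 arrays, which 13 of the 28 integrin probe sets did, covering 7 genes. Itga2, the collagen receptor subunit, had 1 probe set, whose highest signal was 64.7, and the 4 probe sets of Itga5, the fibronectin receptor subunit, stayed at or under 126.4. Both genes were therefore under 200 on all 9 arrays and no fold is given for them. The other 10 untested probe sets belonged to genes with a brighter one, 4 of 5 for Itgav, 4 of 6 for Itgb1, 1 of 3 for Itga3 and 1 of 2 for Itgb6. Itgb6 and the dimmer tested probe set of Itga3 passed 200 in dexamethasone and incubated arrays alone, so both had to be higher there than in fresh arrays. Each gene is represented below by its brightest tested probe set, and the others are given beside it.

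**Figure D1:**
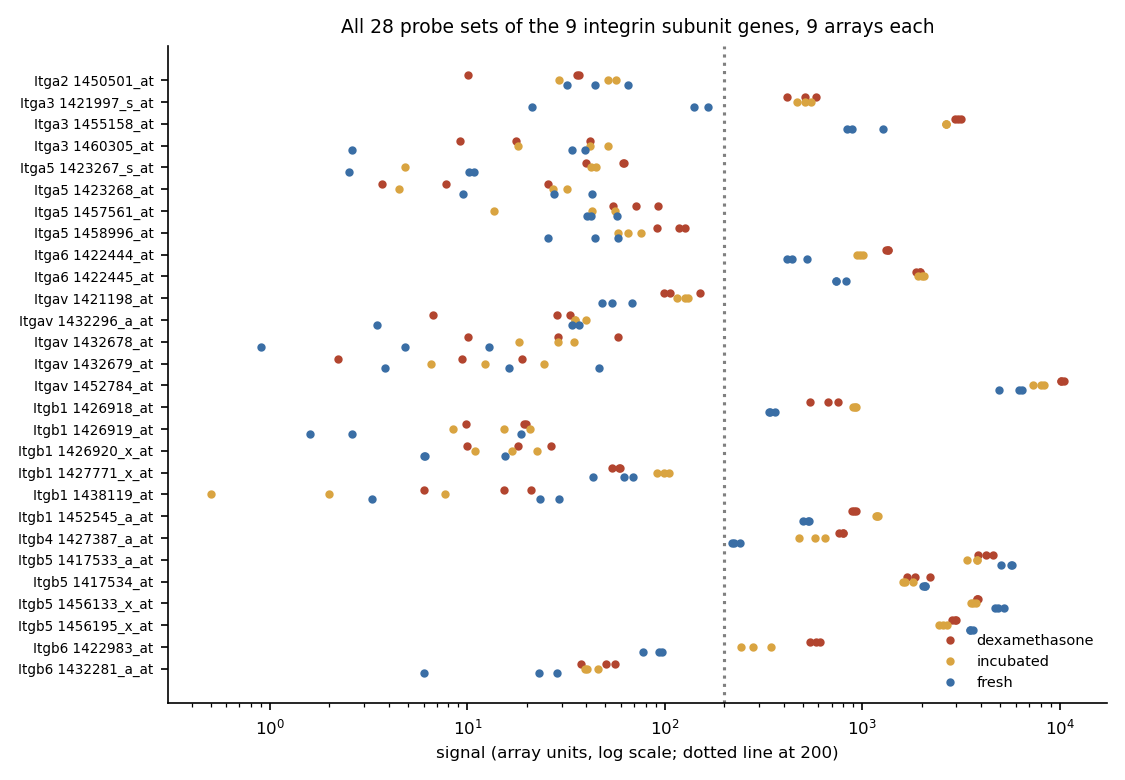
Signal (array units, log scale) of each of the 28 probe sets of the 9 genes on 9 arrays, with 3 points per group and a dotted line at 200. The probe sets of Itga2 and Itga5 lie left of the line on every array, and the 13 tested ones reach it on at least 3.

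After 24 h in culture, 6 of the 7 measured integrin genes were higher than in fresh membrane and Itgb5 was lower. Among the 6 that reached 200 in both groups, which leaves out Itgb6, 5 were higher. The laminin receptor genes Itga3, Itga6 and Itgb4 and the common partner Itgb1 were 2.21 to 2.65 times as high, Itgav was 1.35 times as high and Itgb6 was at least 1.45 times as high. Over all 10242 genes tested, 76.8% were called, 36% higher and 40.7% lower in incubated than in fresh arrays at an adjusted p under 0.05 (limma, Benjamini-Hochberg). The median log2 change of the 7 genes was 1.20, against -0.039 over all genes tested. Each change below is on the log2 scale, a mean difference from this fit with its SE, over 3 arrays per group.

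Among the laminin receptor subunits, Itga3 (chr11:95044475-95076844) had 2665.5, 2655.7 and 2647.5 in incubated arrays, against 835.0, 1276.0 and 886.8 in fresh arrays. The incubated arrays lay close together and far above the fresh ones, of which array B was the highest. Itga3 rose by 1.41 ± 0.12 (limma adjusted p = 1.77e-07). Its dimmer probe set read 469.2, 514.8 and 548.0 in incubated arrays, against 165.8, 21.2 and 139.9 in fresh arrays, and was at least 2.55-fold higher. Fresh array B was thus the highest of its group on one Itga3 probe set and the lowest on the other. Itga6 (chr2:71786886-71858427), the subunit shared by the receptors of laminin and of hemidesmosomes, had 1924.0, 2001.1 and 2051.5 in incubated arrays, against 737.1, 740.2 and 825.2 in fresh arrays. The groups did not overlap, and Itga6 rose by 1.34 ± 0.059 (limma adjusted p = 5.53e-10). Its second probe set rose by 1.04 ± 0.080 (limma adjusted p = 9.23e-08). Itgb4 (chr11:115974725-116008412), the hemidesmosome partner of alpha-6 with a long cytoplasmic domain, had 645.6, 480.8 and 574.0 in incubated arrays, against 239.5, 223.7 and 219.1 in fresh arrays. Its fresh signals were just above the floor, its incubated ones were all higher, and Itgb4 rose by 1.20 ± 0.099 (limma adjusted p = 1.89e-07).

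Itgb1 (chr8:128685654-128733579), which supplies the beta chain of the receptors for collagen and fibronectin and of alpha-3, had 1205.4, 1193.2 and 1177.9 in incubated arrays, against 502.1, 528.5 and 539.0 in fresh arrays. Itgb1 rose by 1.14 ± 0.060 (limma adjusted p = 2.70e-09). Its second bright probe set moved the same way, at 895.2, 932.6 and 921.2 in incubated and 342.8, 359.4 and 336.5 in fresh arrays. On both probe sets the incubated and fresh arrays were far apart, with little spread inside each group.

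Of the alpha-v receptors, Itgav (chr2:83722303-83806917) had 8305.4, 7351.7 and 8073.2 in incubated arrays, against 6248.8, 6476.2 and 4953.3 in fresh arrays. The lowest incubated array lay above the highest fresh one by less than the range of the fresh group, and Itgav rose by 0.43 ± 0.085 (limma adjusted p = 4.86e-04). Itgb6 (chr2:60598292-60722603), the epithelial partner of alpha-v, had 346.3, 278.7 and 244.2 in incubated arrays, against 77.5, 93.6 and 96.5 in fresh arrays. All 3 fresh arrays lay under the floor of 200, so Itgb6 rose at least 1.45-fold (limma adjusted p = 4.26e-07). Itgb5 (chr16:33829665-33949338), the vitronectin receptor chain, had 3836.3, 3385.8 and 3825.8 in incubated arrays, against 5073.7, 5681.7 and 5748.8 in fresh arrays. It was the member that went down: Itgb5 fell by 0.58 ± 0.074 (limma adjusted p = 1.31e-05). Its 3 other probe sets also fell, by 0.29, 0.43 and 0.46. Over all 13 tested probe sets, 9 rose and 4 fell, the 4 being those of Itgb5, where 75.1% of all 18913 tested probe sets were called, 35% higher and 40.1% lower. Among the rises, those of the Itgb6 probe set and of the dimmer Itga3 one were fixed by the filter, as no fresh array reached 200.

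**Figure D2:**
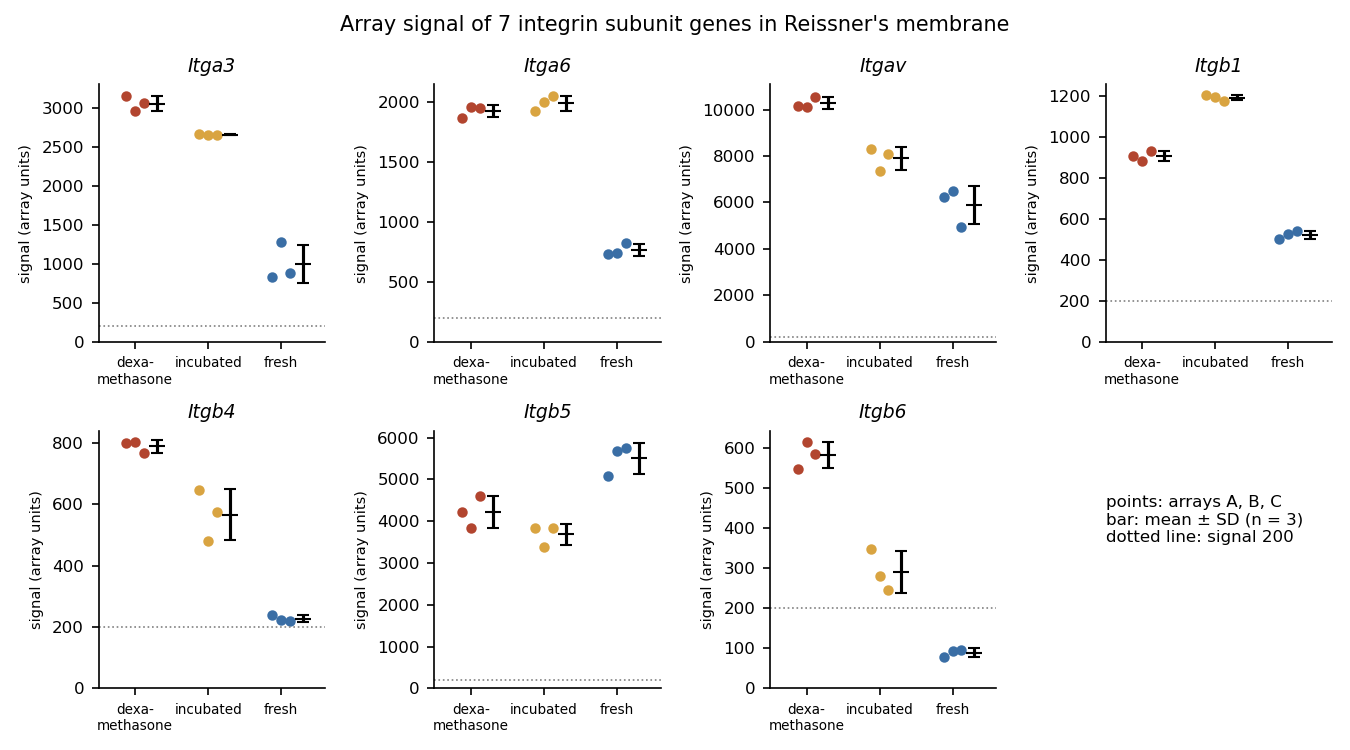
Signal (array units, linear axis from 0) of the 7 measured integrin genes, each by its brightest tested probe set, with 3 arrays per group and the mean ± SD beside them. Incubated arrays lie above fresh arrays for 6 genes and below them for Itgb5, and dexamethasone arrays lie apart from incubated ones most clearly for Itgb6 and Itgb1.

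The rise ran beside other changes in the tissue. Of 10 epithelial markers, 8 rose, 1 fell (Grhl2, -0.51) and Esrp1 did not pass the test, with a median of 1.33. Krt8, a simple epithelial keratin, averaged 18103 in incubated and 4026 in fresh arrays, while the epithelial adhesion gene Epcam rose by 0.39 and Cdh1, the gene of E-cadherin, rose by 0.54 (limma adjusted p at most 2.49e-06). All 7 fibrocyte markers fell, 4 of which reached 200 in both groups, and the 3'/5' ratios given above were lower in incubated than in fresh arrays. The part of cell shares and of RNA quality in the integrin changes was not tested. A scaling on 9 spiked hybridization controls, in place of the mean of the array, kept the 6 rises and 1 fall, and the median change of all tested probe sets was then 0.29, against -0.050 in the deposited scaling.

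With dexamethasone, 4 of the 7 genes were higher than in incubated explants, Itgb1 was lower and Itga3 and Itga6 did not pass the test. Itgb6 was at 1.92 times its incubated level. Over all genes tested, 50.9% were called, 22.3% higher and 28.7% lower. The differences depended on the scaling: with hybridization-control scaling, Itgb6 alone was higher (0.62), Itgb1 (-0.72), Itga6 (-0.39) and Itgb5 (-0.16) were lower, and Itgav, Itgb4 and Itga3 did not pass the test. In that scaling the median change of all tested probe sets was -0.32, against 0.0071 in the deposited one, so the values below are relative to the whole array. The median of the 7 genes was 0.20, against -0.030 over all genes tested.

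Itgb6 had 546.7, 612.9 and 583.9 in dexamethasone arrays, against 289.7 ± 51.9 in incubated arrays (SD, n = 3). Every dexamethasone array lay above every incubated one, and Itgb6 rose by 0.94 ± 0.13 (limma adjusted p = 5.50e-05). Its partner Itgav had 10146.5, 10113.1 and 10561.6 in dexamethasone arrays, against 7910 ± 497 in incubated arrays. The groups did not overlap, and Itgav rose by 0.38 ± 0.085 (limma adjusted p = 0.00250). Itgb4 had 799.3, 803.2 and 766.3 in dexamethasone arrays, against 566.8 ± 82.6 in incubated arrays. The dexamethasone arrays were close together and the incubated ones spread more widely below them, and Itgb4 rose by 0.47 ± 0.099 (limma adjusted p = 0.00174).

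Itgb1 had 907.5, 885.2 and 930.0 in dexamethasone arrays, against 1192 ± 13.8 in incubated arrays. It stood between the incubated and the fresh level, and Itgb1 fell by 0.38 ± 0.060 (limma adjusted p = 1.91e-04). The second bright probe set of Itgb1 read 750.6, 671.0 and 544.7 in dexamethasone arrays and fell by 0.48 ± 0.099 (limma adjusted p = 0.00149). The fall of the brighter probe set was called in all 4 scalings that were run, and the other probe set was read in the deposited scaling only.

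Itgb5 had 4214.2, 3839.8 and 4599.7 in dexamethasone arrays, against 3683 ± 257 in incubated arrays. The lowest dexamethasone array was level with the highest incubated one, 3839.8 against 3836.3, and the rise of 0.19 ± 0.074 was close to the threshold (limma adjusted p = 0.0447). The call was lost without dexamethasone array A (adjusted p = 0.0930) or C (0.179), incubated array B (0.167) or C (0.0501), or fresh array B (0.0548) or C (0.0518). It was also lost with median centring of the arrays (0.18, adjusted p = 0.0616), which left 3 genes higher and 1 lower. Of its 3 other probe sets, 1 rose (0.18, limma adjusted p = 0.00671) and 2 did not pass the test.

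Itga3 had 3150.7, 2954.7 and 3059.9 in dexamethasone arrays, against 2656 ± 9.01 in incubated arrays. All 3 lay above the incubated arrays, but the difference of 0.20 (95% interval -0.051 to 0.45) did not pass in the fit that shares 1 spread across groups (limma adjusted p = 0.165). Without fresh array B, the one that stood apart for Itga3, the adjusted p was 0.00675, and in a fit of the compared groups alone it was 0.00632. Itga6 had 1869.8, 1961.1 and 1955.1 in dexamethasone arrays, which overlapped the incubated ones, with a difference of -0.046 (95% interval -0.17 to 0.083, limma adjusted p = 0.539). The second Itga6 probe set, dimmer by its own signals, read 1313.4, 1354.2 and 1358.2 in dexamethasone arrays, against 973.1, 1007.5 and 942.0 in incubated arrays. On that probe set Itga6 rose by 0.45 ± 0.080 (limma adjusted p = 4.76e-04), so the probe sets of this gene disagreed. Over the 13 tested probe sets, 6 rose and 2 fell, where 52.5% of all probe sets were called, 27.1% higher and 25.5% lower.

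**Figure D3:**
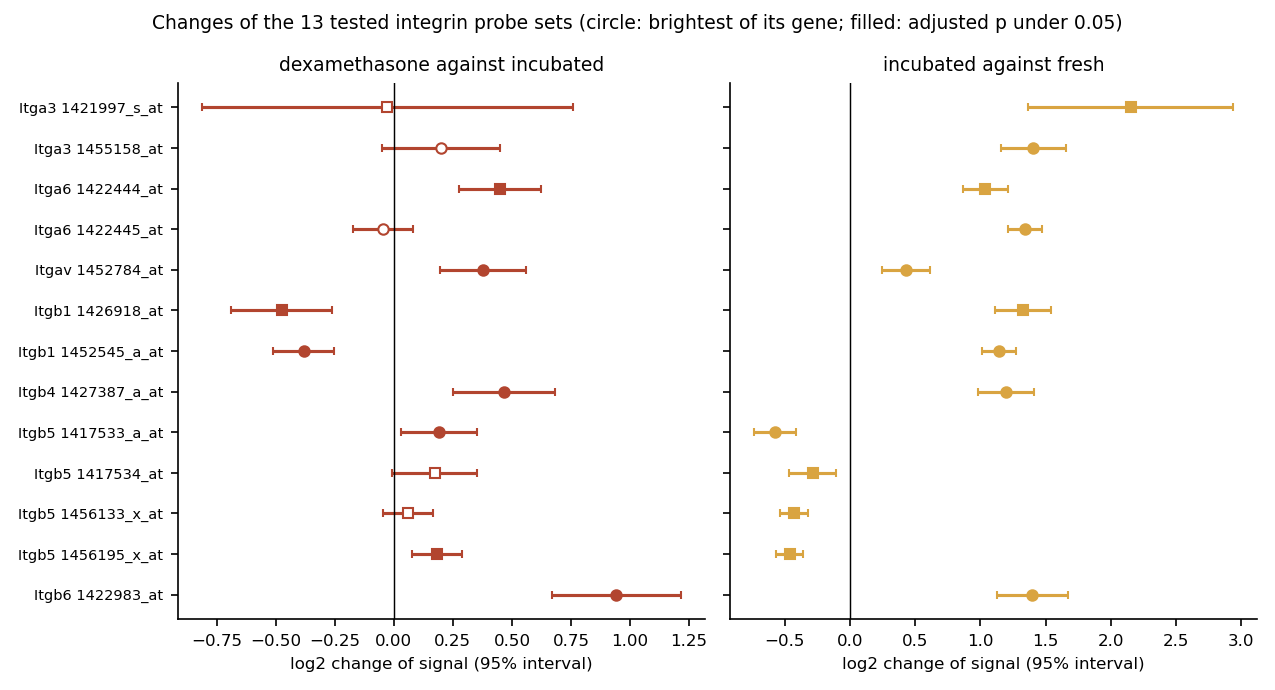
Log2 change of signal with its 95% interval for each of the 13 tested integrin probe sets, dexamethasone against incubated on the left and incubated against fresh on the right. In culture only the 4 Itgb5 probe sets lie left of 0; with dexamethasone both Itgb1 probe sets lie left of 0 and the Itga6 probe sets disagree.

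**Figure D4:**
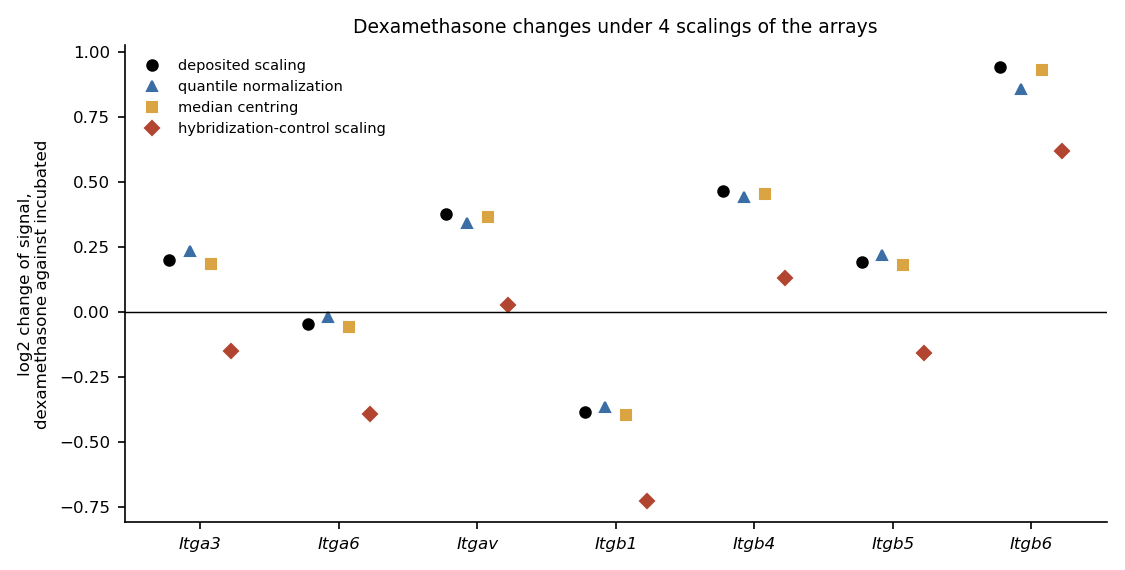
Log2 change of signal, dexamethasone against incubated, for the 7 genes under 4 scalings of the arrays, 1 point per scaling. The first 3 scalings give nearly the same values, while hybridization-control scaling lies lower for every gene and leaves Itgb6 highest (0.62) and Itgb1 lowest (-0.72).

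Markers moved in this comparison too. Of 10 epithelial markers, 7 rose and 1, Epcam, fell, with a median of 0.26, although with hybridization-control scaling 1 rose and 2 fell. Krt8 rose by 0.27 and Krt7 by 0.65, and the Gapdh 3'/5' ratio was higher in dexamethasone than in incubated arrays. Their part in the integrin differences was not tested.

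Set against fresh membrane, dexamethasone explants had 6 of the 7 genes higher and Itgb5 lower, where 78.1% of all genes were called, 35.4% higher and 42.7% lower. Of the 13 probe sets 9 rose and 3 fell, where 76.2% of all probe sets were called, 37.8% higher and 38.4% lower. This comparison shares its arrays with the 2 above, so its values are given beside them and nothing is read from their likeness. Itgb6, whose direction the filter fixed, was at least 2.91-fold higher in dexamethasone than in fresh arrays (limma adjusted p = 2.87e-09). The log2 change was 1.66 ± 0.099 for Itgb4, 1.61 ± 0.12 for Itga3, 1.30 ± 0.059 for Itga6, 0.81 ± 0.085 for Itgav, 0.76 ± 0.060 for Itgb1 and -0.38 ± 0.074 for Itgb5 (limma adjusted p at most 4.24e-04). In order of level in the deposited scaling, Itgb6, Itgb4 and Itgav were highest with dexamethasone, then incubated, then fresh. Itga3 had the same order, but its dexamethasone and incubated levels were not told apart by the test. Itga6 had dexamethasone and incubated arrays that overlapped, with fresh below them. Itgb1 was highest in incubated, then dexamethasone, then fresh arrays, and Itgb5 was highest in fresh, then dexamethasone, then incubated arrays. With hybridization-control scaling Itgb4 and Itgav did not pass the test between dexamethasone and incubated arrays, and Itgb5 was lower with dexamethasone. The Itgb5 difference from fresh did not pass the test on the probe set that is not shared between transcripts (-0.11, limma adjusted p = 0.229).

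The 18 other integrin subunits were read in the same way. Of these, 16 were on the array with a named probe set, 7 were tested, and Itga11 and Itgad were not analysed here. Itga1, Itgae, Itgal, Itgam, Itgax, Itgb2l, Itgb3 and Itgb7 stayed under 200 on every array, which includes alpha chains of leukocyte receptors, and Itga4 passed it on 1 fresh array (243.6). On incubation 1 of the 7 rose and 5 fell, but the directions of Itga7 and Itga10 were fixed by the filter, since they reached 200 in 1 of the 2 groups only. Of the other 5, 4 fell. Over all genes tested, 76.8% were called, 36% higher and 40.7% lower. Itga7, a laminin receptor subunit known from muscle, had 642.6, 657.5 and 724.0 in incubated arrays, against 117.3, 142.6 and 122.1 in fresh arrays, and was at least 3.37-fold higher (limma adjusted p = 6.01e-10). It had passed the floor through the explants alone, so its direction was fixed. Itga8, which pairs with beta-1 to bind nephronectin, had 2170.4, 2414.2 and 1975.9 in incubated arrays, against 4850.2, 4129.9 and 4392.1 in fresh arrays. Itga8 fell by 1.02 ± 0.11 (limma adjusted p = 2.37e-06). Itgb8, another partner of alpha-v that binds latent transforming growth factor beta, had 1064.9, 1149.5 and 1111.7 in incubated arrays, against 2570.7, 2443.3 and 2563.7 in fresh arrays, and Itgb8 fell by 1.17 ± 0.055 (limma adjusted p = 1.02e-09). The beta-8 and beta-5 partners of alpha-v thus both fell in culture. Beta-6 is not set against them, since the direction of Itgb6 was also fixed by the filter.

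The remaining falls on incubation were those of Itga2b, the platelet receptor subunit (-1.52 ± 0.089), and Itga9 (-0.61 ± 0.095; limma adjusted p at most 7.06e-05). Itga10, a collagen receptor subunit known from cartilage, was at least 1.46-fold lower, having passed the filter through fresh arrays alone. Itgb2, the leukocyte beta chain, was at 288.7 ± 46.9 in incubated and 282.1 ± 29.8 in fresh arrays and did not pass the test (0.023 ± 0.12), although with hybridization-control scaling it rose (0.35). With dexamethasone 2 of the 6 that reached 200 in both groups rose and 2 fell. In the deposited scaling 50.9% of all genes tested were called, 22.3% higher and 28.7% lower. Over all 7 subunits, hybridization-control scaling gave 1 higher, Itga10, and 4 lower. Itga8 had 1222.7, 1687.5 and 1281.9 in dexamethasone arrays, all under its incubated ones, and fell by 0.64 ± 0.11 (limma adjusted p = 3.52e-04). Itga2b fell by 0.28 ± 0.089 (limma adjusted p = 0.0207), and both falls were present in every scaling. Itgb2 rose by 0.49 ± 0.12 to 413.7 ± 18.7 with dexamethasone, beside macrophage markers whose summed signal was 7692.9 to 7892.6 in dexamethasone, 6023.4 to 6369.1 in incubated and 5996.9 to 6348.4 in fresh arrays, and hybridization-control scaling ended that call (0.16). Of the 10 macrophage markers 9 were tested, 5 of which rose and 1, Ptprc, fell with dexamethasone, and 3 rose and 3 fell with hybridization-control scaling. Among the 7 that reached 200 in both groups, which leaves out Ptprc and Fcgr3, 4 rose. Itgb8 rose by 0.18 ± 0.055 with dexamethasone but was lower (-0.16) with hybridization-control scaling. Itga10 was under 200 on all arrays of both groups, so its difference has no fold, and Itga7 (0.24 ± 0.096) and Itga9 (-0.017 ± 0.095) did not pass the test.

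**Figure D5:**
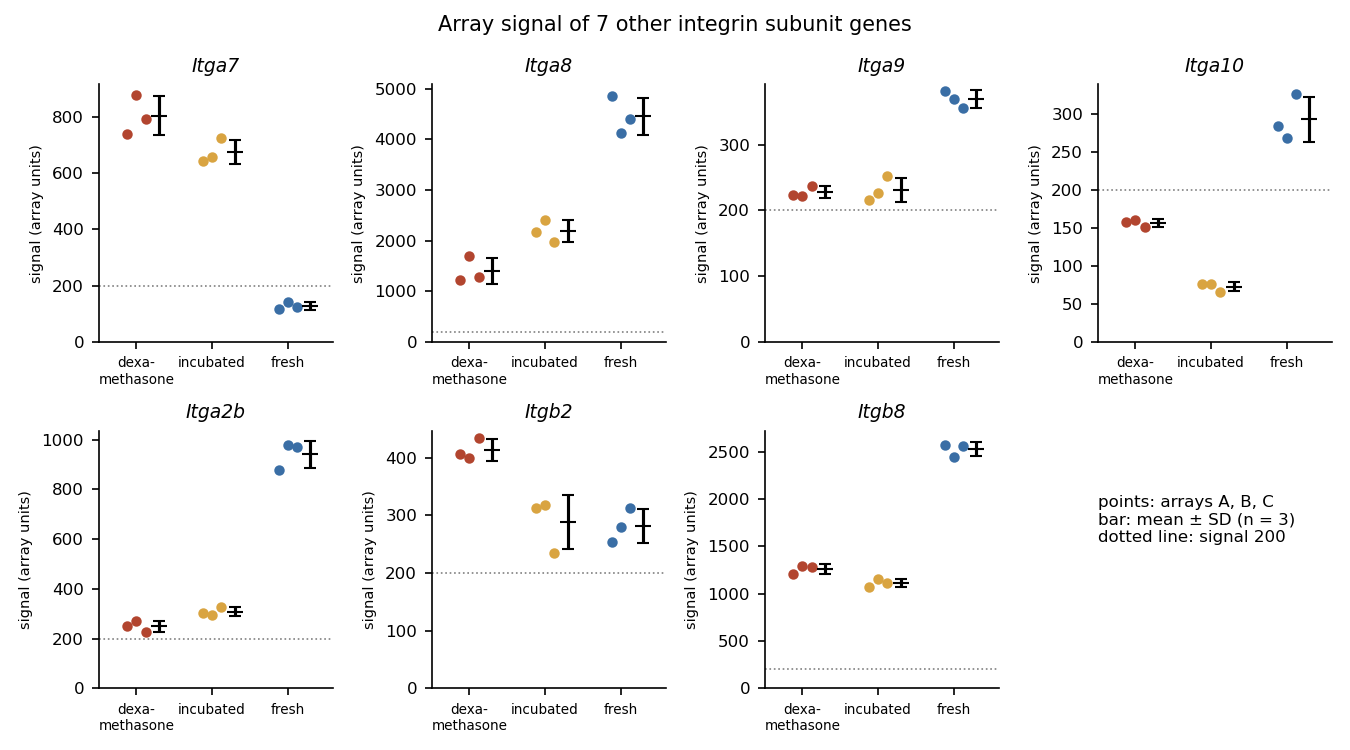
Signal (array units, linear axis from 0) of the 7 other integrin subunit genes that were tested, with 3 arrays per group and the mean ± SD beside them. Itga7 is higher in explants than in fresh membrane, while Itga8, Itgb8, Itga2b, Itga9 and Itga10 are lower.

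Genes of the proteins that join integrins to actin moved in both directions in culture. Of 28 listed activators and adhesion plaque genes, 22 were tested on incubation, 12 rose and 5 fell, with a median of 0.19 (18 rose and 4 fell with hybridization-control scaling). Calls were about as frequent over all genes tested, at 76.8%, with 36% higher and 40.7% lower. The actin crosslinker Flna, which binds beta tails, averaged 6009 ± 128 in incubated and 1660 ± 206 in fresh arrays and rose by 1.84 ± 0.070. The scaffold gene Bcar1 (1.10 ± 0.064), the integrin-linked kinase gene Ilk (1.00 ± 0.058) and Lims1 (1.11 ± 0.070), whose product binds that kinase, rose as well. The tensin gene Tns1 fell by 1.53 ± 0.054 (limma adjusted p at most 1.53e-08 for these 5). With dexamethasone 11 of the 22 rose and the other 11 did not pass the test. Calls were about as frequent over all genes tested, at 50.9%, with 22.3% higher and 28.7% lower. The direction in this list turned with the scaling: 1 rose and 13 fell when arrays were scaled to hybridization controls. Fermt3, the kindlin of blood cells, had 627.2 ± 17.4 in dexamethasone and 273.6 ± 33.6 in incubated arrays and rose by 1.11 ± 0.10, the single rise that was also called in that scaling. Parva (0.45 ± 0.045), Vcl, the vinculin gene (0.44 ± 0.045), and Tns1 (0.39 ± 0.054) rose in the deposited scaling, and hybridization-control scaling ended these calls (limma adjusted p at most 6.77e-05 in the deposited scaling).

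The hemidesmosome partners moved unevenly. Of 10 listed partners, 6 were tested, and on incubation 4 rose and 2 fell. Among all genes tested 76.8% were called on incubation, 36% higher and 40.7% lower. Plec, the gene of plectin that ties beta-4 to keratin filaments, averaged 3800 ± 56.5 in incubated and 2413 ± 31.5 in fresh arrays and rose by 0.65 ± 0.044, while Dst, which encodes the other linker of this kind, dystonin, fell by 1.87 ± 0.086. Of the tetraspanins, membrane proteins that cluster with integrins, Cd9 (0.74 ± 0.052) and Cd82 (0.61 ± 0.059) rose and Cd81 (-0.58 ± 0.044) fell (limma adjusted p at most 8.28e-07 for these 5). Col17a1, a collagen of hemidesmosomes, and the basal keratins Krt5 and Krt14 stayed under 200 on every array. With dexamethasone 2 rose and 2 fell (1 and 4 with hybridization-control scaling). In the deposited scaling 50.9% of all genes tested were called, 22.3% higher and 28.7% lower. Plec rose again, to 5878 ± 190, by 0.62 ± 0.044 (limma adjusted p = 2.79e-07), and Dst rose by 0.48 ± 0.086, a call that hybridization-control scaling ended. Cd9 fell by 0.38 ± 0.052 and Cd82 fell by 0.39 ± 0.059 (limma adjusted p at most 4.77e-04).

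Of 26 listed integrin ligands, 20 were tested, and on incubation 10 rose and 8 fell. Of these, Tnc passed the filter through incubated arrays alone and Col1a1 and Vtn through fresh arrays alone. Thbs1 passed it through explants alone, so the calls of these genes follow from the filter. Lama3, counted as a rise, reached 200 on the dexamethasone arrays and 1 incubated array. Its incubated and fresh means, 182.5 and 27.9, were both under 200, so no fold is given. Of the other 15, 7 rose and 6 fell, with a median of 0.038. Among all genes tested 76.8% were called, 36% higher and 40.7% lower. Ccn1, a matricellular protein bound by alpha-v and alpha-6 receptors, averaged 6898 ± 1005 in incubated and 552.8 ± 31.5 in fresh arrays and rose by 3.56 ± 0.11. The basement membrane collagens Col4a1 (1.65 ± 0.056) and Col4a2 (1.83 ± 0.11) rose, and the laminin chain Lama2 (-1.93 ± 0.091) and the fibrillar collagen Col1a2 (-0.99 ± 0.059) fell (limma adjusted p at most 8.42e-09 for these 5). Other laminin chains went both ways: Lama5 (0.52) and Lamc1 (0.51) rose, Lamb2 (-1.01) and Lamb1 (-0.15) fell, and Lamb3 did not pass the test. With dexamethasone 10 rose and 4 fell, Tnc among the falls with 200 reached in incubated arrays only. In the deposited scaling 50.9% of all genes tested were called, 22.3% higher and 28.7% lower. With hybridization-control scaling 6 of the ligands rose and 7 fell. Col4a1 averaged 4115 ± 31.2 in dexamethasone and 1534 ± 33.0 in incubated arrays and rose by 1.41 ± 0.056, Col4a2 rose by 1.16 ± 0.11 and Ccn2 rose by 0.62 ± 0.049, while Col1a2 fell by 0.78 ± 0.059 (limma adjusted p at most 2.61e-06). These 4 directions were the same in every scaling. Over the same lists, the share of all genes called was the one given for each comparison above.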

How the data were processed

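The deposited values were linear intensity signals. The authors had brought every array to a target signal of 500 over all probe sets, per the labels' description. Per the labels' protocols, RNA went through 2 rounds of in vitro transcription. The summarising software is not given in the sources used here. Probe sets were named through GEO's platform annotation: 34945 had 1 gene symbol, 932 several and 9160 none, and 64 were controls. No 2 arrays held identical values.

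Probe sets at a signal of 200 or more on at least 3 arrays were tested (18913, for 10242 genes). Log2(signal + 32) was fitted over all 9 arrays, 1 mean per group, and moderated by eBayes with an intensity trend (limma 3.58.1 under R 4.3.3), with Benjamini-Hochberg adjustment over all tested probe sets and a threshold of 0.05. The fit was run on simulated data with independent noise and 100 probe sets changed per size of change. It recovered 59% to 65% of log2 changes of 0.5 and 93% to 99% of those of 1, with 5 to 8 false calls. Far fewer probe sets changed there than were called in the real data, so it does not check the fit under that condition. Intervals are at the 95% level. Where all arrays of 1 group lay under 200, a change is given as at least the other mean over 200. Tables and figures used Python 3.11.15, pandas 2.3.3, NumPy 2.4.6 and matplotlib 3.10.9. Promoter sequences are from RefSeq.

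The members and gene lists were chosen with earlier results of these data known. Every integrin subunit tested is named, and of each partner list up to 5 genes (incubation) or 4 (dexamethasone) with the smallest adjusted p. Ligands and partners limited by the floor, and the other laminin chains, are named outside this rule. Epithelial and other markers are named as examples chosen after their values were seen. Represented by probe sets ending in _a_at, _s_at or _x_at, which may read several transcripts, were, among the genes named, Itgb1, Itgb4, Itgb5, Krt7, Krt8, Epcam, Ptprc, Nudt8, Krtcap2, Itga7, Tns1, Bcar1, Ilk, Lims1, Fermt3, Parva, Plec, Ccn1 and Col1a2. So were Lama3, Lamb1, Lamb3 and Vtn. Alternatives were 3 scalings, a pseudocount of 1 or 100, a floor of 100 or 400 or none, no trend, the compared groups alone, gene means, no such probe sets, a replicate block and each array left out.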

Additional observations from a re-analysis of the deposited data

How the results depend on the processing

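Under the 22 alternative settings, including 9 that left out 1 array each, all 7 measured integrin genes kept their direction and their call on incubation, except Itgb4, which had no value without probe sets shared between transcripts. The counts called were 6 to 7 on incubation, 3 to 6 for dexamethasone against incubated and 5 to 8 for dexamethasone against fresh, and with 1 array left out 7, 4 to 5 and 7. Without shared probe sets, 3 genes were called with dexamethasone, against 5 in the main setting, as Itgb4 could not be measured and Itgb5 lost its call. Hybridization-control scaling gave 1 rise and 3 falls there, against 4 rises and 1 fall, and turned Itga3 to -0.15 and Itgb5 to -0.16; over all probe sets it gave 1896 rises and 11460 falls, against 5116 and 4820, and on incubation 10166 rises and 4372 falls, against 6620 and 7593. The mean over probe sets of a gene turned Itga6 to 0.20 (adjusted p = 0.00483), as its 2 tested probe sets changed by -0.046 and 0.45. The cause of the shift with hybridization-control scaling was not tested. With a replicate block by array letter the integrin counts were 7, 5 and 7; same-letter arrays had correlations of deviations of -0.062 to 0.164, and 2 of 9 arrays correlated best with their own letter, so the letters were not taken as pairs. The counts of partner and marker lists under other scalings, and of genes that reached 200 in both groups, were added after seeing the data. The closeness of signals to the floor limits Itgb6 and Itgb4 in fresh membrane.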

Other observations

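The genes whose signal most resembled that of Itga3 were Emp2 (Pearson's r = 0.9967), Nqo1 (0.9945) and Nudt8 (0.9931), over 9 arrays and outside the gene lists. Itga3 was taken for its fitted change on incubation, 1.41 against 1.40 for Itgb6, an order that turned with quantile normalization (1.38 against 1.67) and a pseudocount of 1 (1.44 against 1.68), among other settings. Emp2, an epithelial membrane protein gene, had 3523.4, 3167.1 and 3216.8 in dexamethasone, 2939.9, 2630.7 and 2668.2 in incubated and 902.6, 1298.0 and 982.0 in fresh arrays. Like Itga3, all 3 of these genes had their highest fresh signal on array B. They were picked by their correlation over these same arrays, which favours such a likeness, so it is no separate result. For Itgb6, taken for its change with dexamethasone (0.94), they were D17H6S56E-5 (0.9955), Eprn (0.9937) and Krtcap2 (0.9935). With hybridization-control scaling Itgb1 (-0.72) changed by more than Itgb6 (0.62). D17H6S56E-5 averaged 3975 ± 189 in dexamethasone, 1552 ± 170 in incubated and 381.2 ± 20.5 in fresh arrays (SD, n = 3). The points share arrays and 3 groups that lie far apart, so these values describe a common order of groups and no p is given.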
